A study of Ananas comosus with 8 samples.

Results

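Malate dehydrogenases interconvert oxaloacetate and malate with a nicotinamide cofactor. In plants with Crassulacean acid metabolism (CAM), PEP carboxylase forms oxaloacetate at night, malate dehydrogenase reduces it to malate, and the malate is stored in the vacuole until malic enzyme or another decarboxylase releases its carbon dioxide by day. Plant cells hold forms of the enzyme in several compartments, and outside photosynthesis the enzyme also serves the citric acid cycle and the exchange of reducing power between organelles. The genes described here are 4 malate dehydrogenase genes of pineapple (Ananas comosus) with consecutive gene ids, MDH-7 (Aco017525), MDH-8 (Aco017526), MDH-9 (Aco017527) and MDH-10 (Aco017528). They were chosen by their ids and not by their values in this matrix, though with earlier results of these data known. All 4 were found among the 27024 genes of the expression matrix. The study took its carbon fixation genes from earlier work that used homology searches and expression profiles. The sources used here name the 4 genes as malate dehydrogenases but give no compartment or cofactor for any of them.

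Expression was measured by RNA-seq of polyA-selected RNA in 2 tissues of the "D" leaf of cultivar MD-2, the photosynthetic green tip (tip) and the non-photosynthetic white base (base). The labels list 2 RNA-seq libraries per tissue and no time of day, and the study's methods give this number of libraries for the mid-morning collection alone. Bisulfite libraries of both tissues, 4 in all, were not analysed here. The matrix holds 1 value per gene and tissue in FPKM, a read density per transcript length and sequencing depth, so no value below has a replicate, an SD or a test. The study lists mapped reads for its libraries, but the matrix holds no read counts and its values could not be traced to single libraries, so the number of reads behind a value is not given. A difference in FPKM between tissues can come from the share of cells that express a gene or from the RNA per cell, and these cannot be told apart in bulk tissue.

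With the FPKM as deposited, MDH-8 had about the same level in both tissues, MDH-10 was higher in the green tip, and MDH-7 and MDH-9 lay between them in their tissue ratio. MDH-7 had 12.2 FPKM in the tip and 9.20 FPKM in the base. MDH-8 had 66.2 FPKM in the tip and 66.6 FPKM in the base. MDH-9 had 6.56 FPKM in the tip and 5.82 FPKM in the base. MDH-10 had 56.3 FPKM in the tip and 17.2 FPKM in the base, a ratio of 3.26 and the widest gap of the 4 neighbours. The order of the levels was the same in both tissues, with MDH-8 highest, then MDH-10, MDH-7 and MDH-9. Without replicates it is not known which neighbours in this order differ beyond the spread between libraries.

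**Figure D1:**
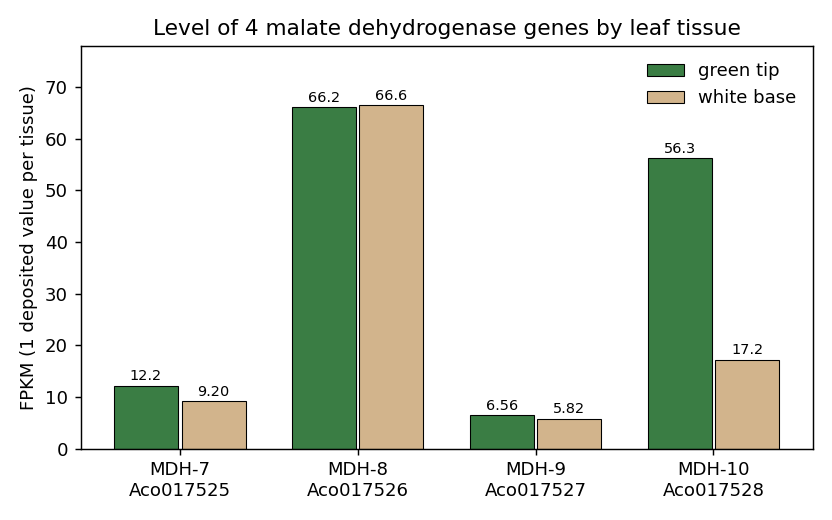
FPKM (vertical axis, linear from 0) of the 4 malate dehydrogenase genes in the green tip (green bars) and the white base (tan bars), with 1 deposited value per bar and no error. MDH-10 has 56.3 FPKM in the tip and 17.2 FPKM in the base, whereas the pair of bars of MDH-8 stand at 66.2 and 66.6 FPKM.

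Against all expressed genes, the 4 neighbours covered a wide part of the range. Expressed genes were those above 0.5 FPKM, which left 17110 genes for the tip and 18096 for the base. MDH-8 was above 88.1% of the expressed genes in the tip and above 90.4% in the base, so it lay in the highest of 5 equal groups of both tissues. MDH-10 was above 85.7% in the tip and above 59.2% in the base, so it lay in the highest group of the tip and the middle group of the base. MDH-7 was above 48.7% of the expressed genes in the tip and 40.5% in the base, and MDH-9 above 33.9% and 30.1%. The order of the genes within a tissue did not depend on scaling, but the number of genes over the limit did. With the limit at 0.5 TPM, after both tissues were brought to an equal total, 16926 genes remained for the tip and 18753 for the base, and MDH-10 was above 60.7% of the latter, in the fourth of the 5 groups. The other positions moved by a few percent at most and stayed in their groups.

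The tissues were compared by the log2 ratio of tip to base on FPKM + 1, which understates the change of low genes. The limit for a difference was 2-fold, without a test. MDH-10 had a log2 ratio of 1.65 and was the 1 member past 2-fold. MDH-7 had a log2 ratio of 0.37, MDH-9 of 0.15 and MDH-8 of -0.01. Over the whole matrix 18372 genes had a mean over 0.5 FPKM, and 38% of these passed 2-fold, 17.2% with the higher level in the tip and 20.7% with the higher level in the base. The count of 1 in 4 is therefore no result about these genes as a group. The ratio of MDH-10 alone was above that of 90.8% of all genes tested, while MDH-7 was above 66.4%, MDH-9 above 57.2% and MDH-8 above 50.0%.

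The scaling of the tissues set the direction of MDH-7 and MDH-9 and the size of the MDH-10 difference. The summed FPKM of the green tip was 1.86 times that of the white base, so bringing both columns to an equal total (TPM) moved the median log2 ratio of all genes from -0.01 to -0.80. After this rescaling MDH-10 was still higher in the green tip but under 2-fold, at 0.79. MDH-7 and MDH-9 turned to the white base side, at -0.45 and -0.64, and MDH-8 lay at -0.89. All 3 remained within 2-fold, whereas 51% of all genes passed it, 42% on the white base side and 8.97% on the green tip side. Relative to the other genes, MDH-10 was then above 89.2%, MDH-7 above 64.9%, MDH-9 above 57.3% and MDH-8 above 46.3%. With median-of-ratios scaling the log2 ratio of MDH-10 was 1.64, and with quantile normalization 1.62. Quantile normalization gave 0.56 for MDH-7, 0.48 for MDH-9 and -0.18 for MDH-8.

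**Figure D2:**
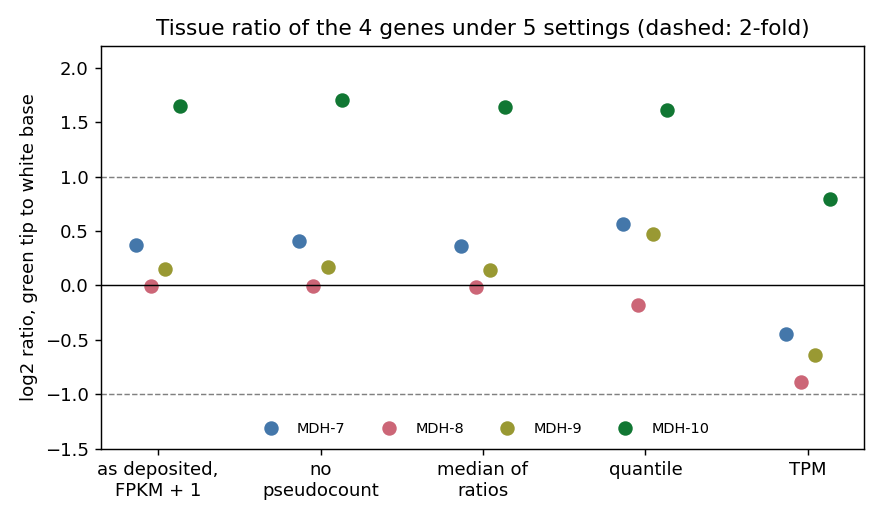
Log2 ratio of tip to base (vertical axis) of the 4 genes under 5 settings (horizontal axis), with 1 point per gene and setting and dashed lines at 2-fold. MDH-10 lies highest in every setting, from 1.71 without a pseudocount to 0.79 after TPM rescaling, where the other 3 genes are below 0.

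Levels of different genes within a tissue can be set side by side, since FPKM are per length, and a constant scaling of a tissue leaves their ratios as they are. In the green tip MDH-8 had 1.18 times the FPKM of MDH-10, and in the white base 3.86 times. MDH-8 had 10.1 times the FPKM of MDH-9 in the green tip and 11.4 times in the white base, and MDH-7 had 1.86 and 1.58 times that of MDH-9. As deposited or with a constant scaling, the relation among MDH-7, MDH-8 and MDH-9 thus changed by at most 1.34-fold between tissues. Quantile normalization is not a constant scaling. With it, the log2 ratio of MDH-8 minus that of MDH-7 was -0.75 on FPKM + 1, beside -0.38 as deposited. MDH-10 changed by 2.46-fold relative to MDH-7, 3.28-fold relative to MDH-8 and 2.90-fold relative to MDH-9. Whether changes of this size exceed the spread between libraries could not be tested with this matrix. The study also ran qRT-PCR with biological replicates and lists primers for these genes, but those measurements were not used here. It reports most of its CAM genes, malate dehydrogenases among them, as differentially expressed between the tissues.

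The summed FPKM of the 4 genes was 141 in the tip and 98.9 in the base. MDH-8 held 46.9% of this sum in the tip and 67.4% in the base, and MDH-10 held 39.8% and 17.4%. MDH-7 held 8.65% and 9.30%, and MDH-9 4.65% and 5.89%. The log2 ratio of the sum was 0.51, and it was reversed after TPM rescaling, at -0.38. Without MDH-10 the sums were 85.0 and 81.6 FPKM, so nearly all of the difference in the sum as deposited was the difference of MDH-10.

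The study names 10 other malate dehydrogenase genes. Together the 14 genes summed to 1855 FPKM in the tip and 741 FPKM in the base. The 4 neighbours made up 7.61% of this sum in the tip and 13.3% of it in the base. In the green tip MDH-8 ranked 6 of 14, MDH-10 ranked 8, MDH-7 ranked 11 and MDH-9 ranked 13. In the white base MDH-8 ranked 4, MDH-10 ranked 9, MDH-7 ranked 12 and MDH-9 ranked 13. MDH-3 (Aco013935) was the highest of the 14 in both tissues, with 845 FPKM in the tip and 251 FPKM in the base. None of the 4 neighbours was thus the leading malate dehydrogenase transcript of either tissue in these values.

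Of the 10 other malate dehydrogenase genes, 9 had a mean over 0.5 FPKM. With the FPKM as deposited, 3 of these 9 passed 2-fold in the direction of the tip and 0 in that of the base. Of all genes, 17.2% and 20.7% did so. The median log2 ratio of the 9 genes was 0.17, beside 0.26 for the 4 neighbours and -0.01 for all genes. The 3 genes past 2-fold were MDH-3 with a log2 ratio of 1.75, MDH-12 (Aco010232) with 2.34 and MDH-13 (Aco004996) with 4.20. The log2 ratio of MDH-10 as deposited was below all 3 of these. With quantile normalization MDH-10, at 1.62, was above MDH-3, at 1.19. After TPM rescaling MDH-12 and MDH-13 remained past 2-fold in the green tip, and 3 other genes, MDH-1, MDH-2 and MDH-6, passed it in the white base. No member of the 4 neighbours passed it in either direction. MDH-8, at -0.89, lay close to the limit that MDH-1 passed at -1.01. Of all genes 51% then passed 2-fold, 8.97% towards the tip and 42% towards the base. With 4 genes, the absence of a member past 2-fold is no result about them as a group.

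**Figure D3:**
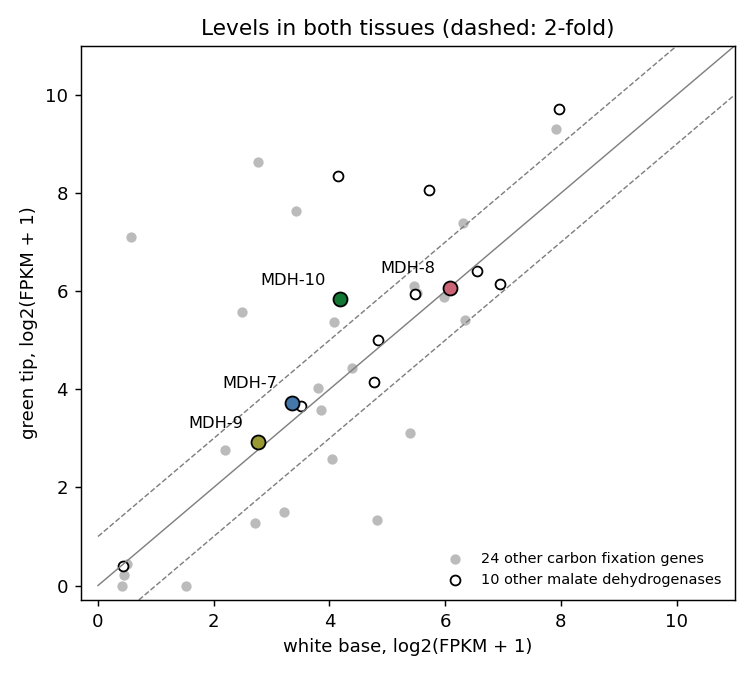
Log2(FPKM + 1) in the white base (horizontal axis) and the green tip (vertical axis) of the 4 genes (labelled points), the 10 other malate dehydrogenases (open circles) and 24 other carbon fixation genes (grey), with the line of equal level and dashed lines at 2-fold. MDH-7, MDH-8 and MDH-9 lie near the line of equal level, and MDH-10, at 56.3 and 17.2 FPKM, lies above the upper dashed line.

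The study names 24 other carbon fixation genes. They are carbonic anhydrases, PEP carboxylases and their kinases, malic enzymes and pyruvate orthophosphate dikinase (PPDK), which restores PEP. Carbonic anhydrases are named for the hydration of carbon dioxide. The study cites work in which only the beta type could be the main one for carbon fixation. Of the 24 genes, 21 had a mean over 0.5 FPKM. Among these 21, 7 passed 2-fold towards the tip and 6 towards the base, with a median log2 ratio of 0.23. After TPM rescaling these counts were 4 and 8. Of these, 5 served to check the tissue labels. They were chosen with earlier results of these data known, and the study itself reports the beta carbonic anhydrases as high in the green tip. The check is therefore not independent. The PPDK gene Aco024818 had 396 FPKM in the tip and 5.81 FPKM in the base, the PEP carboxylase gene Aco010025 had 633 and 239 FPKM, and all 3 beta carbonic anhydrase genes were more than 2-fold higher in the green tip with the FPKM as deposited. Under TPM rescaling all 5 were still higher in the green tip, but Aco010025 and the beta carbonic anhydrase gene Aco002732 were under 2-fold, at 0.51 and 0.44. Aco010025 does not stand for its family, since of the 5 PEP carboxylase genes it alone passed 2-fold towards the tip, while Aco016429 passed it towards the base at -2.29 and the median of the 5 was -0.27. The 1 PEP carboxylase kinase gene over 0.5 FPKM, Aco013938, was also higher in the base, with a log2 ratio of -1.72. The other PPDK gene, Aco014488, was within 2-fold at 0.57 and turned to the base side after TPM rescaling, at -0.16. Of the 4 malic enzyme genes over 0.5 FPKM, 1 passed 2-fold towards the tip and 2 towards the base, with a median of -0.62. The other carbonic anhydrases did not all share the direction of the beta genes. Of the 4 gamma genes, 0 passed 2-fold towards the tip and 1 towards the base, with a median of -0.03. The study describes some gamma genes as high in the tip and low in the base, which was not seen at 2-fold here. Of the 2 alpha genes over 0.5 FPKM, 1 passed it in each direction. No marker was fixed for the white base, so that label was not checked on its own.

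Among the 30 genes of these lists outside the 4 neighbours and over 0.5 FPKM, the gene with the level pattern nearest to each neighbour was found by Euclidean distance in log2(FPKM + 1) over the 2 tissues. For MDH-7 it was another malate dehydrogenase, MDH-5 (Aco004349), with 11.6 FPKM in the tip and 10.4 FPKM in the base, at a distance of 0.17. For MDH-8 it was the gamma carbonic anhydrase gene Aco014975, with 57.7 and 62.5 FPKM, at 0.22. For MDH-10 it was the beta carbonic anhydrase gene Aco002732, with 40.3 and 15.9 FPKM, at 0.49. MDH-9 had no close partner, and the nearest was the PPDK gene Aco014488, with 5.81 and 3.57 FPKM, at 0.60. A pattern over 2 values is shared by many genes, and between 85 and 1085 genes of the whole matrix were nearer to the respective member than the gene named.

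The 4 genes were also compared with the genes around them in the id order. In the study's list of differentially methylated regions at CAM genes, 3 of the 4 genes, MDH-7, MDH-8 and MDH-9, have gene models on 1 linkage group. The models of MDH-7 and MDH-8 overlap on opposite strands. No model of MDH-10 was found in that list, which is not a full annotation, so its place beside the others rests on its id. The sources used here do not state that reads were counted by strand, and without it reads from the overlap of MDH-7 and MDH-8 cannot be assigned to 1 gene. The values of these 2 genes are uncertain for this reason.

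The flanking genes moved in both directions, and MDH-10 had a neighbour on its other side with the opposite pattern. On the lower side, Aco017524 had 18.5 FPKM in the tip and 7.75 FPKM in the base, a log2 ratio of 1.16, beside 0.37 for MDH-7. On the upper side, Aco017529 had 8.83 FPKM in the tip and 61.1 FPKM in the base, a log2 ratio of -2.66, beside 1.65 for MDH-10. Of the 10 genes with the 5 ids on each side, 4 passed 2-fold towards the tip and 1 towards the base, with a median log2 ratio of 0.63. The other 3 of the 4 were Aco017520 at 2.51, Aco017532 at 2.02 and Aco017523 at 1.09. The invertase gene Aco017533, 5 ids above MDH-10, had 185 and 135 FPKM and was within 2-fold at 0.45. After TPM rescaling the median of the 10 genes was reversed, at -0.24, with 2 genes past 2-fold towards the tip and 4 towards the base. The flanking genes other than Aco017533 carry no name in the sources used here.

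**Figure D4:**
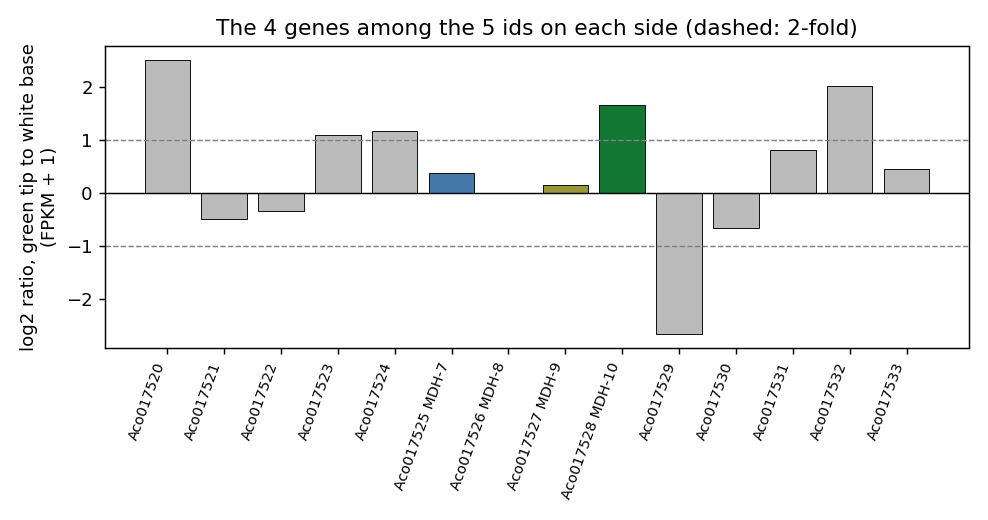
Log2 ratio of tip to base on FPKM + 1 (vertical axis) of the 4 genes (coloured bars) and of the genes with the 5 ids on each side (grey bars), in id order, with dashed lines at 2-fold. MDH-8, at -0.01, has almost no bar, and the bar of MDH-10 at 1.65 stands beside that of Aco017529 at -2.66; the bars of MDH-7, MDH-9, Aco017531 and Aco017533 would fall below 0 after TPM rescaling.

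Neighbouring members were set beside all pairs of consecutive ids in the matrix. Of these, 12968 pairs had both genes over 0.5 FPKM, and their log2 ratios differed by a median of 1.09, with quartiles of 0.45 and 2.15. With the FPKM as deposited, MDH-8 and MDH-9 differed by 0.16, a smaller difference than in all but 9.05% of these pairs. MDH-7 and MDH-8 differed by 0.38, and 21.5% of all pairs differed by less. MDH-9 and MDH-10 differed by 1.502, and 61.8% of all pairs differed by less. These positions depend on the scaling and were calculated for the FPKM as deposited only. With quantile normalization MDH-8 and MDH-9 differed by 0.66, and MDH-9 and MDH-10 by 1.14. The step from MDH-10 to Aco017529, 4.31, was larger than in 93.6% of all pairs, and that from Aco017524 to MDH-7 was 0.78.

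Over all 4 members the log2 ratio spanned 1.66, from MDH-8 to MDH-10. Of the 7522 runs of 4 consecutive ids over 0.5 FPKM, 27.0% spanned less, and the median span was 2.53. The mean log2 level of the 4 members spanned 3.23, beside a median of 3.42 over all runs. These are descriptions of the id order, without a test, and nothing in them is particular to the 4 genes.

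**Figure D5:**
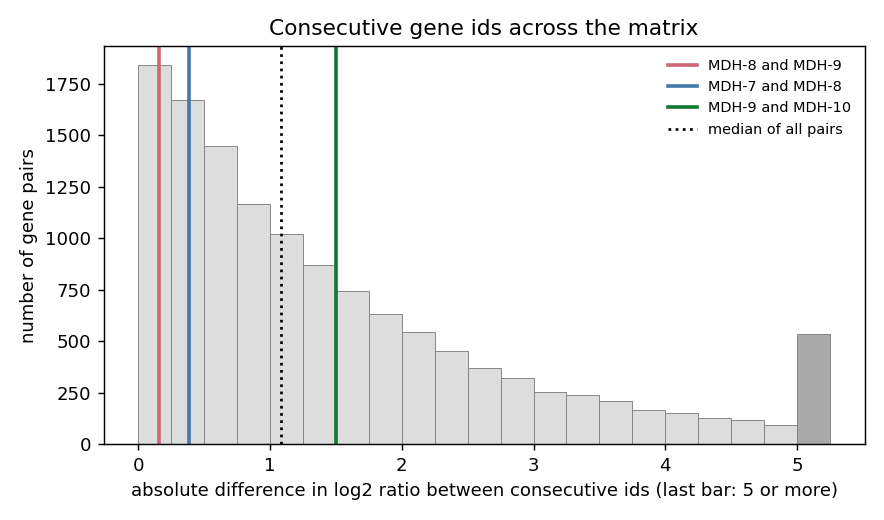
Number of gene pairs (vertical axis) by the absolute difference in log2 ratio between genes of consecutive id (horizontal axis, log2 units, last bar 5 or more), over 12968 pairs. Coloured lines mark the 3 neighbouring pairs of members at 0.16, 0.38 and 1.502, and the dotted line marks the median of all pairs, 1.09.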

How the data were processed

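FPKM values for the green tip, the white base and the mean of both were deposited by the authors, with 1 value per gene and tissue from 2 RNA-seq libraries each. The study's methods describe trimming with Trimmomatic, alignment with HISAT2, uniquely mapped reads and StringTie. The submitters' processing notes name TopHat2 2.1.0, Cufflinks and Cuffdiff 2.2.1 instead. Which of these made the matrix, how libraries were merged into a tissue value and the genome build are not given in the sources used here. Reads shared by related malate dehydrogenase genes may have been treated differently by either route. Depth was not recovered: of 226 genes with low values in both tissues, at most 13 shared a step in the ratio of the tissues, with bins of 0.01 on the log2 scale.

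The members were taken by gene id. They and the gene lists were chosen with earlier results of these data known. Log2 ratios of FPKM + 1 were calculated where the tissue mean exceeded 0.5 FPKM, and differences of 2-fold were counted. No test was run because the matrix holds 1 value per tissue; limma was planned only for values per library. Alternatives were median-of-ratios scaling, TPM rescaling, quantile normalization, a pseudocount of 0.1, a filter at 1 FPKM or none, and a criterion of 1.5-fold. Ratios without a pseudocount were added after seeing the data. The genes named are the members, the check genes of the green tip, the highest and the 2-fold different of the other malate dehydrogenases, the nearest carbon fixation gene of each member, and the flanking genes that are nearest or 2-fold different. Outside this rule, MDH-1, MDH-2, MDH-6, Aco013938, Aco016429, Aco017531 and Aco017533 were named after their values were seen. The study's region table was used only for whether gene models overlap. No gene id matched the RefSeq table, so no sequence or coordinate is shown. The calculation was tested on simulated data. Python 3.11.15, numpy 2.4.6, pandas 2.3.3 and matplotlib 3.10.9 were used.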

Additional observations from a re-analysis of the deposited data

How the results depend on the processing

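Log2 ratios were set against 2-fold, and levels, shares, counts and differences between neighbours against a 1.5-fold change. No paired analysis was possible because the columns are single values of a tissue, and thus no library could be left out. TPM rescaling reversed the log2 ratios of MDH-7 (-0.45), MDH-9 (-0.64), the sum of the 4 genes (-0.38) and the median of the 10 flanking genes (-0.24). It took MDH-10 under 2-fold (0.79), so that 0 of the 4 genes were 2-fold higher in the green tip. Levels in the white base became 15.0 for MDH-7, 109 for MDH-8, 9.52 for MDH-9 and 28.2 TPM for MDH-10. Among the other carbon fixation genes, 4 were then 2-fold higher in the green tip. The number of other malate dehydrogenases 2-fold higher in the white base, 0 as deposited, was 3 with TPM rescaling, 1 with quantile normalization and 2 with a criterion of 1.5-fold. Pseudocount, filter and median-of-ratios scaling changed no direction and no side of 2-fold among the results followed.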
